A study of Mus musculus with 6 samples.

Results

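Inflammasomes are protein complexes of the innate immune system, and transcripts of 10 genes that encode their parts were followed in bone-marrow-derived macrophages (BMDMs). The genes were taken by symbol from the deposited table of 54532 genes. They encode the sensors NLRP3, AIM2, NLRC4, pyrin (Mefv) and NLRP1B, the NLRP3 partner NEK7, the adaptor ASC (Pycard), caspase-1 (Casp1), caspase-11 (Casp4 in the table) and the pore-forming protein gasdermin D (Gsdmd). All 10 were annotated as protein-coding and all 10 passed the filter on low values, which asked for 1 TPM or more in 2 or more libraries and was passed by 12755 genes in all.

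BMDMs are macrophages grown from bone marrow, here from C57BL/6 mice with no engineered allele and in medium conditioned by L929 cells. The study asked how metformin, an antidiabetic drug, alters the early response to lipopolysaccharide (LPS), a glycolipid on the surface of Gram-negative bacteria. There were 3 groups of 2 libraries each. The untreated BMDMs received neither agent, the LPS group received 100 ng/ml LPS for 2 h, and the Met + LPS group was held in metformin at 5 mM for 6 h before 2 h of LPS at 100 ng/ml. No group received metformin alone, and all values are transcript levels in resting or LPS-stimulated cells, with no second signal given to assemble an inflammasome.

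In an inflammasome, a sensor that has met its trigger recruits ASC, and ASC gathers pro-caspase-1, which then cleaves itself. Active caspase-1 matures the cytokines IL-1β and IL-18 and cuts gasdermin D, whose freed part forms pores in the plasma membrane. Caspase-11 binds LPS in the cytosol and cuts gasdermin D directly. In macrophages, LPS sensed at the surface by TLR4 is the classical priming signal, which raises the supply of NLRP3 and of pro-IL-1β before a trigger arrives.

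The promoters of 4 genes are shown to let known motifs of inflammatory and stress-response factors be read beside the changes. Nlrp3, Casp4 and Mefv are the genes that passed the study's cut-offs after LPS in the test used here. Pycard and Gsdmd passed them under metformin. Gsdmd had no promoter sequence on hand and is not shown. The sequences are from RefSeq (build GRCm38.p6), 5′ to 3′ on the strand of the gene, and stop before the first annotated exon base. Capitals mark matches to the motifs searched. Nlrp3 (+ strand) is shown at chr11:59541319-59541567, Casp4 (+ strand) at chr9:5308599-5308827, Mefv (- strand) at chr16:3718125-3718374 and Pycard (- strand) at chr7:127993868-127994117.
Nlrp3: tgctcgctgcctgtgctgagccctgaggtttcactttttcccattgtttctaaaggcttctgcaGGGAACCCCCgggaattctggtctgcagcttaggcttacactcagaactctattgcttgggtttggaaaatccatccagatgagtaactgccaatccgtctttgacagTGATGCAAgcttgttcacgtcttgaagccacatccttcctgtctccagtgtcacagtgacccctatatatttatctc
Casp4: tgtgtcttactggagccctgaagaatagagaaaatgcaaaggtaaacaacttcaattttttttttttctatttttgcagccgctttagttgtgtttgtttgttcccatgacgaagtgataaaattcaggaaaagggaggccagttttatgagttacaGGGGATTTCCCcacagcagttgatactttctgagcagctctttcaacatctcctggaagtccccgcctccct
Mefv: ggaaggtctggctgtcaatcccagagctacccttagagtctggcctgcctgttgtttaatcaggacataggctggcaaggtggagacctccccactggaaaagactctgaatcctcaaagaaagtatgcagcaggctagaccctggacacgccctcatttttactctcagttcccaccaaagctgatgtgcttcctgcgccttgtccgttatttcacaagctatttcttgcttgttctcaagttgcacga
Pycard: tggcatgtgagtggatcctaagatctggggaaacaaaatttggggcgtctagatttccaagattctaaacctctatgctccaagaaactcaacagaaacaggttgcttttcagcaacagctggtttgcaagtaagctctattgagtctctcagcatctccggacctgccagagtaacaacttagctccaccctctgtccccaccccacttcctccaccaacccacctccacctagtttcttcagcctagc

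RefSeq windows of 250 bases before the start were on hand for 9 of the 10 genes, 12 windows in all, and 32817 windows genome-wide. Gsdmd is named only. Both strands were searched for the NF-kappaB consensus and for a pair of GAAA half-sites 2 bases apart (ISRE), and for the letters TTCNNNGAA (GAS), TGANTCA (AP-1), CACGTG (E-box) and TGATGNAA (the C/EBP-ATF response element, CARE), which were chosen with results of these data known. The NF-kappaB consensus was found in Casp4 and Nlrp3, 2 of the 9 genes and 3 of the 12 windows, and in 3.90% of all windows. The Casp4 windows with the match overlap each other, and the other Nlrp3 window held no match. In Casp4 the capitals are a pair of matches to this motif that overlap each other, and in Nlrp3 the first run of capitals is the NF-kappaB match and the second a CARE. No other matches overlapped in the sequences shown, and Mefv and Pycard held no match. CARE was present in Nlrp1b and Nlrp3, in 2 of the 12 windows, against 3.45% of all windows. The E-box was present in Casp1, in 1 of the 12 windows, against 6.02%. ISRE, GAS and AP-1 letters, present in 2.97%, 7.01% and 6.75% of all windows, were in no window of the 9 genes. These are matches of letters and do not show binding.

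Values are TPM, a unit the authors made from read counts that corrects for the length of each gene and sums to 1000000 in every library. Between 96.1% and 96.3% of the values above 0 were whole multiples, within 0.02 reads, of the value of 1 read, and 25457016 to 30762754 reads per library were recovered in this way. Of the 10 genes, 9 gave whole reads in every library, the exception being Nlrc4. Mefv rested on 12 and 14 reads in the untreated libraries, and the other whole-read genes on 147 to 17545. The labelled cell type was checked against its markers. All 7 macrophage markers were expressed, with Lyz2 reaching 35844 TPM, Adgre1 1351 to 1750 TPM and Csf1r 1224 to 1943 TPM. All T-cell and B-cell markers were under 1 TPM, with Cd3g at 0, and the mast-cell markers Mcpt4 and Tpsb2 were at 0. The remaining mast-cell marker, Cpa3, reached 1.56 TPM, and the mast-cell list summed to 0.920 to 1.56 TPM in untreated, 0.0866 to 0.181 TPM in LPS and 0.262 to 0.298 TPM in Met + LPS libraries. Lyz2, at 21203 to 35844 TPM over the libraries, made up most of the macrophage sums, which thus mainly follow this gene. The summed macrophage markers were 43710 to 45600 TPM in untreated, 34526 to 35264 TPM in LPS and 28763 to 28884 TPM in Met + LPS libraries. The 6 neutrophil markers summed to 29.4 to 32.6, 26.3 to 27.6 and 42.8 to 45.2 TPM in the same order, with 5 of the 6 reaching 1 TPM and the defining marker Ly6g at 0.140 TPM or less. Dendritic-cell markers summed to 1.71 to 4.21 TPM and fibroblast markers to 0.614 to 3.02 TPM. The part of these shifts in the results was not tested. In bulk RNA, fewer cells of a type cannot be told apart from less RNA per cell.

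The levels of the 10 genes spanned a wide range in untreated BMDMs. TPM compares them per length, here that of all annotated exons together, which can exceed the longest transcript (3710 against 1901 bases for Casp4), so the order of close genes also depends on the lengths used. Casp1 was the highest at 264 ± 3.84 TPM (SD, n = 2 here and for all group means) and exceeded 95.9% of the tested genes. Gsdmd (131 ± 5.28 TPM), Nek7 (75.6 ± 1.98 TPM), Aim2 (45.4 ± 1.21 TPM), Nlrp3 (37.8 ± 0.841 TPM), Pycard (30.9 ± 0.316 TPM) and Casp4 (23.6 ± 1.33 TPM) followed. Nlrp1b (9.24 ± 0.996 TPM), Nlrc4 (7.42 ± 0.761 TPM) and Mefv (0.543 ± 0.0818 TPM) were the lowest, and the libraries of no neighbouring pair in this order overlapped. After LPS, the libraries of Casp1 and Nlrp3 overlapped at the top of the order, both above 97.9% of the tested genes, and those of Nlrc4 and Nlrp1b overlapped at the bottom. In the Met + LPS libraries Nlrp3 was the highest member and Casp1 the second, without overlap.

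**Figure D1:**
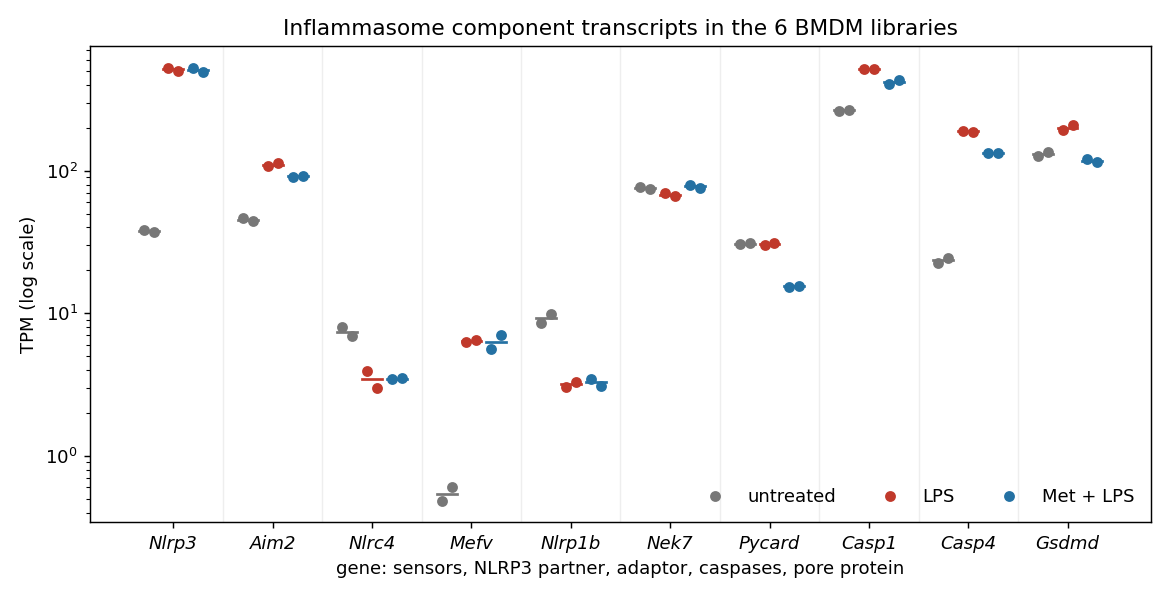
TPM of the 10 genes (log scale) in the 6 libraries, with 1 point per library, a short line at each group mean and colours for the untreated, LPS and Met + LPS groups. Nlrp3, Casp4 and Mefv show the widest gaps between untreated and stimulated libraries, and the Met + LPS points of Pycard and Gsdmd lie below their other 4 points.

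The first comparison, LPS vs. untreated, asks what 2 h of priming does to the supply of each component. LPS raised 6 of the 10 genes and lowered 2, as judged by an adjusted p-value under 0.01 in limma, a linear model with spread shared across genes. The increases were those of the sensors Nlrp3, Mefv and Aim2, of both caspases and of Gsdmd. Among all tested genes 76.3% changed by the same rule, 16.2% upwards and 60.1% downwards. These shares hold for TPM as deposited, where the median tested gene was at -0.48. With libraries rescaled by the median ratio over genes that median was -0.04. The shares of all tested genes under this scaling are not given, so the large share downwards may depend on the scaling. The LPS libraries were both above both untreated libraries for 6 of the 10 genes and both below for 3, against 20.1% and 71.5% of all tested genes. The study's cut-offs add a minimum size, an absolute log2 fold change of 2, to the adjusted p-value. The study applied them to results of DESeq2 on read counts. Here they were applied to limma on log2(TPM + 1), so calls can differ from those of the study. With these cut-offs 3 of the 10 genes passed, all of them higher, against a background of 6.08% of tested genes, 3.72% higher and 2.37% lower. The median log2 fold change was 0.78 over the 10 genes and -0.48 over all tested genes. The 2 libraries of a group came from cells seeded in duplicate, and nothing states that they are separate animals, so the p-values measure the spread between these libraries, which may be technical. With 2 libraries against 2, an exact two-sided permutation test cannot go below 0.333.

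Among the sensors, Nlrp3 (ENSMUSG00000032691, chromosome 11, 59541568 to 59566956), which responds to potassium efflux and membrane stress, moved most. Its levels were 38.3 and 37.2 TPM in untreated and 525 and 501 TPM in LPS-treated BMDMs. Both LPS libraries were far above both untreated ones. The means differed 13.6-fold, a log2 fold change of 3.73 on the log2(TPM + 1) scale (SE 0.05, adjusted p = 1.1e-08 in limma).

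Mefv (ENSMUSG00000022534, chromosome 16, 3707218 to 3718097), which encodes pyrin, a sensor that responds to certain bacterial toxins, was close to silent in untreated cells. It measured 0.485 and 0.601 TPM there and 6.30 and 6.45 TPM after LPS. The LPS libraries did not overlap the untreated ones, and the means differed 11.7-fold. The log2 fold change of 2.26 (SE 0.12, adjusted p = 5.1e-06 in limma) understates the change of so low a gene, and it was 3.34 with a pseudocount of 0.1 and 3.53 with limma voom on the recovered reads.

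Aim2 (ENSMUSG00000037860, chromosome 1, 173350879 to 173466040) encodes the sensor of cytosolic double-stranded DNA. Its levels of 46.2 and 44.5 TPM in untreated cells stood against 108 and 112 TPM after LPS. The increase of 2.42-fold, with a log2 fold change of 1.26 (SE 0.04, adjusted p = 5.1e-07 in limma), was below the fold cut-off, although the libraries were clearly separated.

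Nlrc4 and Nlrp1b moved the other way. Nlrc4 (ENSMUSG00000039193, chromosome 17, 74425438 to 74459142), the partner of the NAIP receptors for bacterial flagellin and secretion systems, was at 7.95 and 6.88 TPM in untreated cells and at 3.94 and 2.98 TPM after LPS. Nlrp1b (ENSMUSG00000070390, chromosome 11, 71153102 to 71230733), a sensor that anthrax lethal factor cleaves in susceptible strains, was at 8.53 and 9.94 TPM and then at 3.06 and 3.28 TPM. In both genes each LPS library was below each untreated library. Their log2 fold changes were -0.92 (SE 0.13, adjusted p = 4.3e-04 in limma) and -1.29 (SE 0.10, adjusted p = 2.7e-05 in limma), in the direction of most tested genes and below the median of all genes by 0.44 and 0.81. Of the 31-base words in Nlrp1b exons, 93.9% occur in no other gene, and its paralog Nlrp1a shares the most, so some of its reads are uncertain.

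The partner Nek7 and the adaptor Pycard did not pass the test after LPS. Nek7 (ENSMUSG00000026393, chromosome 1, 138482875 to 138620141), a kinase that binds NLRP3 and is needed for its activation, had 77.0 and 74.2 TPM in untreated and 69.7 and 66.3 TPM in LPS-treated cells. The LPS libraries were the lower ones, with a log2 fold change of -0.15 (95% interval -0.26 to -0.04, adjusted p = 0.018 in limma). With voom on recovered reads the adjusted p was 0.0074, and with a replicate block it was 0.0075, so the test was then passed.

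Pycard (ENSMUSG00000030793, chromosome 7, 127989708 to 127993867) encodes ASC, the adaptor shared by most inflammasomes. It was at 30.6 and 31.1 TPM in untreated and at 30.3 and 30.9 TPM in LPS-treated BMDMs, and these libraries overlapped. The log2 fold change was -0.01 (95% interval -0.11 to 0.09, adjusted p = 0.803 in limma). Because the median tested gene fell by 0.48 on the log2 scale, the sign for genes near 0 depends on the scaling. With libraries rescaled by the median ratio over genes, which moved the median of all tested genes to -0.04, the differences were 0.46 for Pycard and 0.33 for Nek7, and both passed the test as higher. The same scaling moved 3 other values by over 1.5 times, to 1.09 for Gsdmd, 1.44 for Casp1 and -0.51 for Nlrc4.

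Both caspases and Gsdmd increased after LPS. Casp4 (ENSMUSG00000033538, chromosome 9, 5308828 to 5336783) was at 22.7 and 24.6 TPM in untreated and at 190.4 and 186 TPM in LPS libraries. The groups were widely separated, with a log2 fold change of 2.94 (SE 0.05, adjusted p = 2.1e-08 in limma), or 7.97-fold between means. Its neighbour Casp1 (ENSMUSG00000025888, chromosome 9, 5298517 to 5307265) lies on the same strand and ends 1562 bases before Casp4. From a much higher basal level of 262 and 267 TPM it reached 514 and 515 TPM, with a log2 fold change of 0.96 (SE 0.04, adjusted p = 1.7e-06 in limma).

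The ratio of Casp4 to Casp1 TPM was 0.0867 and 0.0920 in untreated and 0.371 and 0.362 in LPS libraries, so caspase-11 transcripts gained on those of caspase-1. Gsdmd (ENSMUSG00000022575, chromosome 15, 75862327 to 75867408) was at 127 and 135 TPM before and at 192 and 208 TPM after LPS. The libraries were separated, and the log2 fold change of 0.60 (SE 0.05, adjusted p = 4.1e-05 in limma) was the smallest of the 6 increases, and it was 1.09 with median-ratio scaling.

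**Figure D2:**
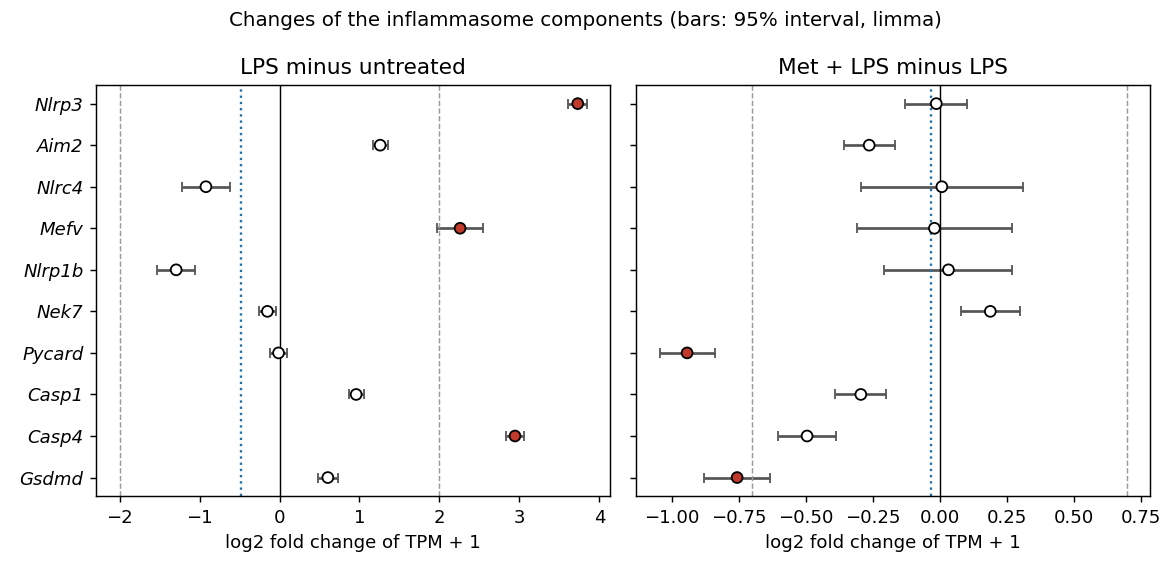
Log2 fold changes of TPM + 1 for the 10 genes, for LPS minus untreated and Met + LPS minus LPS, with bars for the 95% interval, filled points past the study's cut-offs (dashed lines) and a dotted line at the median of all tested genes. Nlrp3 lies at 3.73 in the first comparison and at -0.01 in the second, while Pycard lies at -0.01 in the first and at -0.94 in the second.

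The second comparison, Met + LPS vs. LPS, asks which of these transcripts differ when LPS follows metformin. Of the 10 genes 5 fell, as judged by an adjusted p-value under 0.01, and none rose, whereas 32.6% of all tested genes changed, 18.0% downwards and 14.5% upwards. With a replicate block or voom, Nek7 passed as higher. The 5 genes that fell were the adaptor Pycard, the pore protein Gsdmd, both caspases and Aim2. With the study's minimum size for this comparison, an absolute log2 fold change of 0.7, Pycard and Gsdmd passed, 2 of 10, against 4.09% of tested genes lower and 4.19% higher. The remaining sensors Nlrp3, Mefv, Nlrc4 and Nlrp1b, and Nek7, did not pass the test. The median log2 fold change was -0.14 over the 10 genes and -0.03 over all tested genes.

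Pycard showed the largest difference. Its 2 LPS libraries were at 30.3 and 30.9 TPM and its 2 Met + LPS libraries at 15.4 and 15.5 TPM, so that metformin-treated cells were also below the untreated level. The mean fell by 49.5% to 15.4 ± 0.119 TPM, with a log2 fold change of -0.94 (SE 0.04, 95% interval -1.05 to -0.84, adjusted p = 2.0e-05 in limma). Ordered from the lowest log2 fold change, Pycard was at rank 275 and Gsdmd at rank 494 of the 12755 tested genes. Leaving out any library kept the value between -0.96 and -0.93.

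The length used for Pycard, 3800 bases, is that of all annotated exons together, while its transcripts range from 493 to 3800 bases. Of these bases, 485 (12.8%) overlap the antisense gene Gm45205, which was at 0 to 0.0789 TPM. The sources used here do not say whether the counting used strand, so reads from the overlap cannot be told apart.

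Gsdmd fell from 192 and 208 TPM in LPS libraries to 120.2 and 116 TPM in Met + LPS libraries. In TPM the latter were below even the untreated libraries at 127 and 135 TPM. That difference did not pass the test (-0.15, adjusted p = 0.0286 in limma), and it was 0.34 with median-ratio scaling. Compared with LPS alone, the mean was lower by 41.0%, and the log2 fold change was -0.76 (SE 0.05, 95% interval -0.88 to -0.63, adjusted p = 8.0e-05 in limma). Its size sits near the fold cut-off, ranging from -0.81 to -0.70 when single libraries were left out.

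Casp4 and Casp1 fell less. Casp4 had 133 and 134 TPM in the Met + LPS libraries against 190.4 and 186 TPM with LPS, a log2 fold change of -0.49 (SE 0.05, adjusted p = 2.6e-04 in limma). Casp1 had 406 and 434 TPM against 514 and 515 TPM, a log2 fold change of -0.29 (SE 0.04, adjusted p = 0.0013 in limma). For both caspases the groups did not overlap, and both remained above the untreated libraries. Over the 10 genes, both Met + LPS libraries were below both LPS libraries for 5 and above for 1, against 40.0% and 33.8% of all tested genes.

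Aim2 was the only sensor that passed the test in this comparison, with 91.0 and 92.0 TPM against 108 and 112 TPM. The log2 fold change was -0.26 (SE 0.04, adjusted p = 0.0021 in limma). Its call did not hold in every subset, since the adjusted p was 0.0137 without LPS replicate 2, 0.0132 without Met + LPS replicate 1 and 0.0108 without Met + LPS replicate 2.

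Nlrp3 was at 529 and 489 TPM in the Met + LPS libraries, on either side of the LPS libraries at 525 and 501 TPM. The log2 fold change of -0.01 had a 95% interval of -0.13 to 0.10 (adjusted p = 0.855 in limma), so a difference as large as that of Pycard lies outside it. Mefv was at 5.57 and 7.06 TPM, also on either side of its LPS libraries, with an interval of -0.31 to 0.27. For the low sensors Nlrc4 (3.44 and 3.49 TPM) and Nlrp1b (3.44 and 3.10 TPM) the intervals were -0.29 to 0.31 and -0.21 to 0.27. The precision was thus lower for Mefv, Nlrc4 and Nlrp1b than for Nlrp3.

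Nek7 was the single member whose Met + LPS libraries, at 79.6 and 75.7 TPM, were both above its LPS libraries at 69.7 and 66.3 TPM. The log2 fold change of 0.19 (95% interval 0.08 to 0.30) had an adjusted p of 0.0141 in limma, 0.0071 with a replicate block and 9.8e-04 with voom on recovered reads. Its antisense neighbour Gm28501, which shares 118 exon bases with Nek7, was at 0 in all libraries.

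**Figure D3:**
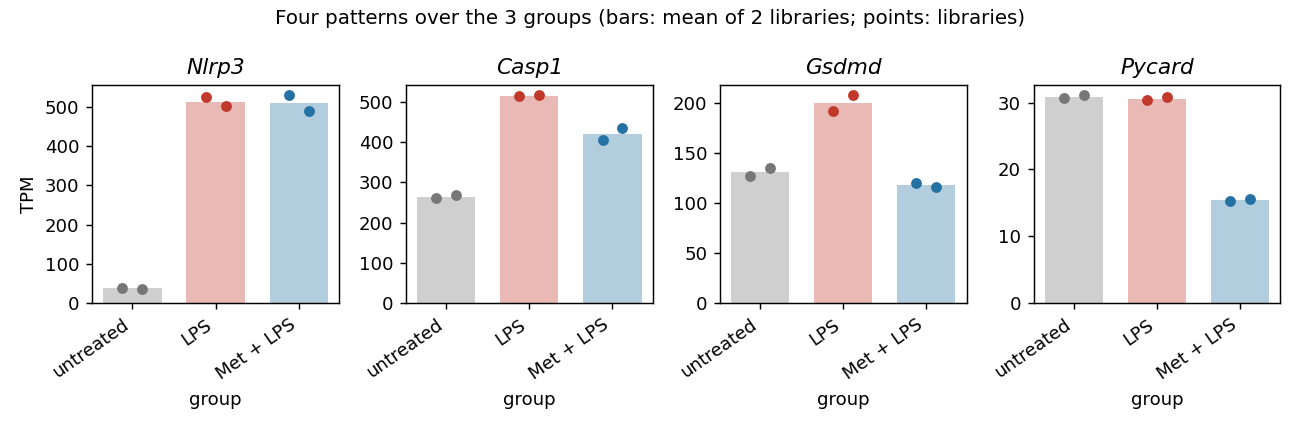
TPM of Nlrp3, Casp1, Gsdmd and Pycard by group, with bars for the mean of 2 libraries and points for the libraries, on axes that start at 0. Nlrp3 is high in both LPS-stimulated groups, Casp1 is intermediate in Met + LPS at 406 and 434 TPM, Gsdmd is back near its untreated level, and Pycard is low in Met + LPS alone.

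The third comparison sets Met + LPS against untreated BMDMs and shares its libraries with the other comparisons, so it restates them on another baseline. By an adjusted p-value under 0.01, 5 of the 10 genes were higher and 3 lower, against 16.3% and 58.8% of all tested genes, 75.1% together. The libraries were separated for 5 genes upwards and 4 downwards, against 21.7% and 69.1% of all tested genes. Nlrp3 (log2 fold change 3.72, adjusted p = 1.5e-08 in limma), Casp4 (2.45), Mefv (2.24), Aim2 (0.996) and Casp1 (0.66) were higher. Nlrp1b (-1.26), Pycard (-0.95, adjusted p = 2.4e-06 in limma) and Nlrc4 (-0.91) were lower. Gsdmd differed by -0.15 (95% interval -0.27 to -0.03, adjusted p = 0.0286 in limma) and did not pass. With median-ratio scaling Gsdmd was at 0.34 (adjusted p = 9.4e-04 in limma), Casp1 at 1.16, Nlrp1b at -0.84, Pycard at -0.48 and Nlrc4 at -0.49 with an adjusted p of 0.01004, so the direction for Gsdmd depends on the scaling.

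Set side by side on the log2(TPM + 1) scale, the change from untreated in Met + LPS cells was 99.7% of that in LPS cells for Nlrp3 and 99.1% for Mefv. It was 83.2% for Casp4, 79.1% for Aim2 and 69.3% for Casp1, while for Gsdmd it was of opposite sign (-25.1%). With median-ratio scaling the Gsdmd share was positive, 31.2%, and that of Casp1 was 80.2%. The LPS decreases of Nlrc4 (99.1%) and Nlrp1b (97.4%) were almost as large with metformin. Ratios between parts of the same pathway, in TPM, differed between the groups as well. The ratio of Nlrp3 to Pycard TPM was 1.25 and 1.20 in untreated, 17.3 and 16.2 in LPS and 34.4 and 31.5 in Met + LPS libraries. The ratio of Gsdmd to Casp1 TPM went from 0.486 and 0.504 to 0.374 and 0.403 and then to 0.296 and 0.266. For Nlrp3 and Nek7, whose products bind each other, the ratio was 0.498 and 0.501 in untreated, 7.54 and 7.55 in LPS and 6.64 and 6.45 in Met + LPS libraries.

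The tested genes whose pattern over the 6 libraries was nearest to that of Nlrp3 were Tfec (Euclidean distance of centred log2 values 0.209), Gadd45b (0.216) and Tnfaip2 (0.262). Gadd45b, for example, averaged 56.4, 739 and 673 TPM in untreated, LPS and Met + LPS libraries. Those nearest to Casp1 were Azi2 (0.0491), Arf4 (0.0919) and Elp5 (0.0997). Azi2 averaged 35.8, 72.6 and 57.9 TPM in the 3 groups.

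Around the core parts, 8 lists of related genes were examined, with 71 of 80 listed genes tested. After LPS, 38 of the 71 rose and 29 fell by an adjusted p-value under 0.01, against 16.2% and 60.1% of all tested genes, and 23 rose and 1 fell past the study's cut-offs, where the background was 3.72% higher and 2.37% lower. In the comparison of Met + LPS with LPS, 5 rose and 33 fell by the adjusted p-value, against 14.5% and 18.0% of all tested genes, and 3 rose and 5 fell past the cut-offs. That is 8 of 71 genes, against 8.28% of all tested genes. Without LPS replicate 2 the number past the cut-offs in this comparison was 5, with Casp12, Il1b and Naip2 lost.

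All 5 tested cytokine products rose after LPS by the adjusted p-value, against 16.2% of all tested genes. Il1b, the chief substrate of caspase-1, was at 2.76 and 4.17 TPM in untreated, 3207 and 2942 TPM in LPS and 1865 and 1793 TPM in Met + LPS libraries. The groups did not overlap in either comparison, and the log2 fold changes were 9.44 (adjusted p = 1.7e-08 in limma) and -0.75 (adjusted p = 0.0047 in limma). The second difference kept its direction under all 11 alternatives, with log2 fold changes from -0.81 to -0.69. Its call was less stable, since it lies near the fold cut-off and held under 5 of the 11. By RT-qPCR in BMDMs, at a lower metformin dose, the paper also reports significantly reduced Il1b. Il1a, whose precursor is active without caspase-1 cleavage, rose with a log2 fold change of 7.95. It did not pass the test under metformin (-0.11, SE 0.17, adjusted p = 0.638 in limma). Its Met + LPS libraries, at 367 and 355 TPM, were still both below its LPS libraries at 410 and 370 TPM.

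Il18, the other caspase-1 substrate, went from 14.8 and 14.6 TPM to 23.2 and 24.2 TPM with LPS and was at 18.9 and 17.6 TPM in Met + LPS libraries. Its groups did not overlap, with log2 fold changes of 0.65 (adjusted p = 3.9e-05 in limma) and -0.36 (adjusted p = 0.0021 in limma). Il1rn, the IL-1 receptor antagonist, rose under metformin, whereas Il1b and Il18 fell and Il1a and Il18bp did not pass the test. It averaged 21.9 ± 0.0457 TPM in untreated libraries and was at 316.5 and 315.8 TPM in LPS and 624 and 616 TPM in Met + LPS libraries. Its log2 fold changes were 3.79 and 0.97 (adjusted p = 7.9e-06 in limma for the second).

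Of the NAIP and NLR family, 11 of 15 genes were tested, and after LPS 3 rose and 8 fell by the adjusted p-value. Of all tested genes, 16.2% rose and 60.1% fell. Nod2 (log2 fold change 4.37) and Nod1 (2.57), receptors for bacterial peptidoglycan, passed the cut-offs. Under metformin Nod1 fell from 44.6 and 54.5 TPM to 25.9 and 25.7 TPM (log2 fold change -0.91, adjusted p = 5.3e-04 in limma). Naip2, the receptor that couples bacterial secretion-system rods to NLRC4, was at 57.0 and 57.5 TPM in untreated, 38.2 and 34.5 TPM in LPS and 61.5 and 61.8 TPM in Met + LPS libraries. Its increase under metformin was 0.75 (adjusted p = 9.9e-05 in limma), while the difference for Nlrc4 itself was 0.01 (adjusted p = 0.965 in limma). Both Met + LPS libraries of Naip2 were above the untreated ones, but that difference of 0.11 did not pass the test (adjusted p = 0.106 in limma).

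The AIM2-like receptors, HIN-200 proteins encoded near Aim2, mostly passed the cut-offs after LPS. All 9 tested genes of 13 listed rose by the adjusted p-value, against 16.2% of all tested genes. The cut-offs were passed by 8, against 3.72% of all tested genes that passed them as higher. The median log2 fold change of the list was 3.66 against -0.48 for all tested genes. The largest were Ifi205 (7.60), Ifi211 (4.17), Ifi206 (4.002) and Ifi203 (3.85). Under metformin none passed the cut-offs, and 6 fell by the adjusted p-value, against 18.0% of all tested genes. The median log2 fold change of the list was then -0.39. Ifi205 was at 233 and 242 TPM in LPS and at 165 and 154 TPM in Met + LPS libraries.

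Among triggers and regulators of NLRP3, 14 were tested, and after LPS 3 rose and 9 fell by the adjusted p-value. Of all tested genes, 16.2% rose and 60.1% fell by the same rule. Gbp5 (log2 fold change 8.46), Tnfaip3 (6.61), a ubiquitin-editing inhibitor of NF-κB signalling, and Clic4 (2.49), a chloride channel protein, rose past the cut-offs, and Txnip fell past them. Txnip, a thioredoxin-binding protein that can associate with NLRP3, was at 265 and 259 TPM in untreated, 57.4 and 59.5 TPM in LPS and 7.50 and 9.55 TPM in Met + LPS libraries. The groups were widely separated, with log2 fold changes of -2.15 and -2.65 (adjusted p = 1.1e-05 in limma for the second). With median-ratio scaling the first was -1.66, short of the fold cut-off. Under metformin 6 genes of this list fell and none rose by the adjusted p-value, against 18.0% and 14.5% of all tested genes. Txnip alone passed the cut-offs. None of the 6 regulators of NLRP1B and pyrin passed the cut-offs in either comparison. By the adjusted p-value 1 of them rose and 5 fell after LPS, and 1 rose under metformin. The shares of all tested genes just given apply to these counts as well.

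Of 11 cell-death executors, 4 rose and 5 fell after LPS by the adjusted p-value, against 16.2% and 60.1% of all tested genes. Zbp1, a nucleic-acid sensor of necroptosis, passed the cut-offs with a log2 fold change of 3.42. Under metformin 1 rose and 5 fell, against 14.5% and 18.0%, and Casp12, which lies in the same caspase cluster as Casp1 and Casp4, passed the cut-offs (-0.90, adjusted p = 0.0037 in limma). Its level was low, 3.17 ± 0.613 TPM with LPS and 1.23 ± 0.178 TPM when metformin came first, and the call held under 6 of 11 alternatives. Of the 8 LPS-detection genes, 6 rose and 2 fell after LPS by the adjusted p-value, against 16.2% and 60.1% of all tested genes. Gbp2 (6.02), Gbp3 (5.73) and Irgm1 (2.85), interferon-induced GTPases that act on bacteria or their LPS in the cytosol, passed the cut-offs. Of all tested genes, 3.72% passed them as higher. Ticam1, the TLR adaptor TRIF, was at 41.5 and 40.3 TPM in LPS and at 93.4 and 85.7 TPM in Met + LPS libraries. Its log2 fold change of 1.11 (SE 0.06, adjusted p = 2.8e-05 in limma) contrasted with 5 genes of the list that fell under metformin by the adjusted p-value. The share of all tested genes that fell was 18.0%.

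Transcription factors with known sites in the member genes all rose after LPS by the adjusted p-value, 7 of 7. The share over all tested genes was 16.2%. Irf1 (log2 fold change 4.81), Nfkb1 (2.55) and Relb (2.55) passed the cut-offs. Under metformin 6 of the 7 fell by the adjusted p-value, against 18.0% of all tested genes. The median log2 fold change was -0.33 for the list against -0.03 for all tested genes. Irf8, a myeloid interferon regulatory factor, passed the cut-offs, from 211 and 261 TPM to 133.5 and 123 TPM (log2 fold change -0.87, adjusted p = 5.7e-04 in limma). The lists were chosen with earlier results of these data known, so their counts describe these genes and are not independent evidence.

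**Figure D4:**
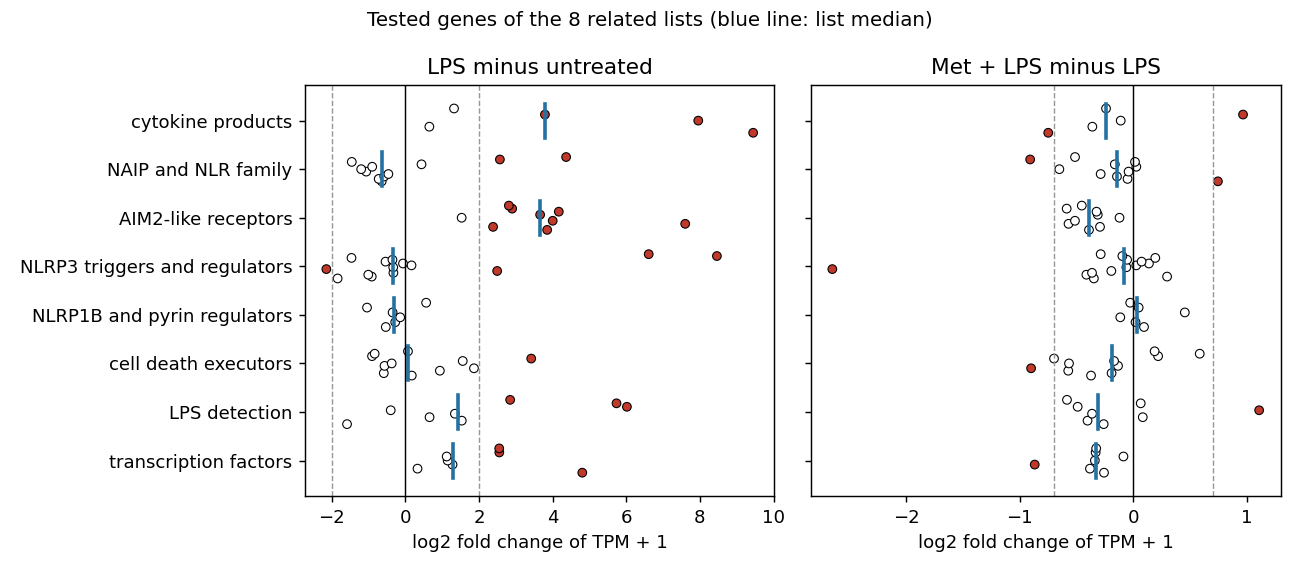
Log2 fold changes of TPM + 1 for the 71 tested genes of the 8 lists, with 1 point per gene, filled points past the study's cut-offs (dashed lines), and a blue line at the median of each list. The AIM2-like receptors cluster to the right after LPS, with a median of 3.66, and Txnip is the point farthest to the left under metformin, at -2.65.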

How the data were processed

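The 6 libraries, 3 groups of 2, were grouped by their treatment labels. Per the labels and methods, the authors enriched poly-A RNA, sequenced it single-end, aligned it to GRCm38 (annotation release 94) with STAR 2.6.1d, used SAMtools 1.9, counted reads with featureCounts of Subread 1.6.3, and deposited TPM. How counts became TPM and the strand setting are not given in the sources used here. Here, the 12755 genes that reached 1 TPM in 2 or more libraries were tested on log2(TPM + 1) with limma 3.58.1 in R 4.3.3 (lmFit, eBayes with trend), all libraries in a common fit with 3 residual degrees of freedom and Benjamini-Hochberg adjustment over tested genes. The 95% intervals are those of this fit, unadjusted. Reads were recovered with exon lengths of the GENCODE annotation, which matched 54495 genes. Without molecular identifiers, read numbers speak to counting error alone. Alternatives were a pseudocount of 0.1, no filter, median-ratio scaling, a replicate block, voom on recovered reads (12750 genes), and leaving out each library. The test was also run on simulated data, for Met + LPS vs. LPS only and with balanced changes. That run does not check LPS vs. untreated, where the median gene shifts. Tables were made with Python 3.11.15, pandas 2.3.3 and numpy 2.4.6 and plots with matplotlib 3.10.9.

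The 10 genes, lists, motifs and tests were chosen with earlier results of these data known. All 10 genes are named. Of the lists, genes past the cut-offs are named, up to the 4 with the largest absolute log2 fold change per list and comparison, and Il1b and Il18 always. The Il1a, Nlrc4 and Naip2 values set beside these, the Ifi205 levels under metformin and the levels of the nearest-pattern genes were added after values were seen. Another list of cell-type markers is not reported here.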

Additional observations from a re-analysis of the deposited data

How the results depend on the processing

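The number of the 10 genes past the cut-offs was 3 after LPS and 2 for Met + LPS vs. LPS under all 11 alternatives, and for Met + LPS vs. untreated it was 8 by the adjusted p-value, or 9 with median-ratio scaling. Directions reversed for differences near 0. For Pycard, LPS vs. untreated was 0.46 with median-ratio scaling, 0.01 (0.0063) with voom, and -0.0244 to 0.00064 without single libraries. With median-ratio scaling, Nek7 was 0.33 for LPS vs. untreated and Gsdmd 0.34 for Met + LPS vs. untreated. Without single libraries, Met + LPS vs. LPS ranged from -0.0693 to 0.0445 for Nlrp3, -0.15 to 0.16 for Nlrc4, -0.17 to 0.13 for Mefv and -0.0246 to 0.0905 for Nlrp1b. Of the other values for the 10 genes, 317 kept their direction and their side of the cut-offs (of the adjusted p-value alone for Met + LPS vs. untreated), 1 gained its call and 1 lost it (Nek7 at 0.53 and Nlrc4 at -0.49, both Met + LPS vs. untreated with median-ratio scaling). By the adjusted p-value alone, over all 3 comparisons and 11 alternatives, 8 calls were gained and 4 lost. The gains were those of Nek7 with median-ratio scaling (LPS and Met + LPS vs. untreated) and with the replicate block and voom (LPS vs. untreated and Met + LPS vs. LPS), and of Pycard and Gsdmd with median-ratio scaling. The losses were that of Nlrc4 and those of Aim2 for Met + LPS vs. LPS without LPS replicate 2 or either Met + LPS library. Of the LPS-called list genes, Txnip lost its call with median-ratio scaling, at -1.66. The list genes past the cut-offs for Met + LPS vs. LPS numbered 8. They numbered 6 with no filter, 9 with a pseudocount of 0.1 and 11 with voom on recovered reads. Median-ratio scaling changed the split of higher to lower calls by the adjusted p-value for Met + LPS vs. untreated from 5 and 3 (62.5% higher) to 7 and 2 (77.8%) among the 10 genes, and from 38 and 26 (59.4%) to 46 and 15 (75.4%) in the lists. For LPS vs. untreated it changed the lists from 38 and 29 (56.7%) to 44 and 13 (77.2%). The shares of all tested genes with this scaling are not given here. Deviations of the same-numbered libraries correlated at -0.00, 0.03 and 0.01 over genes, so the numbers were not taken as pairs. With the replicate block, Nek7 reached adjusted p-values of 0.0075 (LPS) and 0.0071 (metformin before LPS), and the counts of calls were 3, 2 and 8 for the 10 genes and 24, 8 and 63 for the lists. Leaving out a library leaves a lone sample that is assumed to vary like the other groups. Depth limits Mefv most, at 12 and 14 reads in untreated cells.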
